A study of Homo sapiens with 12 samples.

Results

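The early response of TMD8 lymphoma cells to induction of a guide RNA against PRMT5 was described by setting the 2 libraries taken after 3 days of doxycycline against the 2 libraries of day 0. Members were the genes with a mean value of at least 1 FPKM (fragments per kilobase of transcript, scaled to the mapped fragments of the library) over the 6 TMD8 libraries, which 10456 of the 25369 rows of the table reached. TMD8 is a human diffuse large B cell lymphoma line of the activated B cell type, and the series also holds OCI-Ly7, a line of the germinal centre type, for 12 libraries in all. Both lines expressed a guide RNA targeting PRMT5 that doxycycline induces. The day 0 cells carried that guide as well and had 0 days of doxycycline; the day 3 cells had 3 days and the day 6 cells 6 days at 20 ng/ml, with 2 libraries for each day. No group with doxycycline and no PRMT5 guide entered, so an effect of doxycycline and one of the guide cannot be told apart. Whether the line was 1 clone, and whether the 2 libraries of a day came from separate cultures, is not stated in the labels, so p-values measure the spread between these libraries, which may be technical. Days 0, 3 and 6 follow the titles and characteristics of the samples and the design text; the treatment protocol lists a different set of days.

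PRMT5 places symmetric dimethyl marks on arginines of Sm proteins, histones and many other proteins, and works as a complex with WDR77. CLNS1A, RIOK1 and COPRS are adaptors that bring it different substrates, Sm proteins among them for CLNS1A, so its loss is known for disturbed splicing and for activation of p53. In B cell lymphoma PRMT5 is known for its part in proliferation and in B cell receptor and BCL6 programmes.

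The libraries held the markers of the labelled line. Of the 7 B cell markers 6 passed the filter, led by CD74 at up to 994 FPKM. All 8 markers of the activated B cell type passed, with IRF4 at 461 and 423 FPKM on day 0 and at 361 and 348 on day 3. Of the germinal centre markers 5 of 7 passed, with a summed level of 71.9 and 54.1 FPKM on day 0 and 40.4 and 38.2 on day 3, and MME was at 0 in all 4 libraries. Markers of other cells were near 0. The T and NK cell markers summed to between 0.287 and 0.766 FPKM in each of the 4 libraries, with CD3D, CD3E, CD3G, CD2, NKG7 and KLRD1 at 0. The myeloid markers summed to between 0.205 and 0.383 FPKM, with LYZ, S100A8, S100A9, FCGR3A and MPO at 0. The stromal and epithelial markers summed to between 0.879 and 1.62 FPKM, with EPCAM, KRT18 and VWF at 0. The sum of FPKM per library was 462014 and 467844 on day 0 and 410217 and 397477 on day 3. Absolute depth is unknown. The most common ratio between small values gave a relative depth of 1.18 for the second day 0 library and of 0.54 and 0.74 for the day 3 libraries, against 1 for the first day 0 library, so values close to 0 on day 3 rest on fewer fragments.

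PRMT5 transcript fell on day 3 on the deposited scale, and the values of its partners followed the common shift of the libraries. The day 0 libraries held PRMT5 at 64.8 and 60.5 FPKM, those of day 3 held 41.3 and 42.0, and those of day 6 held 49.6 and 54.7. Both day 3 libraries lay below both day 0 libraries, and as deposited day 6 lay between them. In bulk samples, fewer cells of a kind and less RNA per cell cannot be told apart. On the log2(FPKM + 1) scale, used for every change below, the change was -0.58 (SE 0.07, adjusted p = 0.0212, limma). Without 1 of the 4 day 0 and day 3 libraries the adjusted p lay between 0.0672 and 0.132, so none of those 4 fits passed. Because a shift common to most genes moves every FPKM value, the test was repeated after median-ratio scaling, which gives the libraries a common level for their typical gene. Scaled, PRMT5 stood at 53.8 and 53.1 on day 0, at 43.1 and 44.8 on day 3 and at 56.6 and 57.9 on day 6, so day 3 was again lower without overlap while day 6 lay above day 0. The scaled day 3 change was -0.28 (SE 0.05, adjusted p = 0.147). WDR77, the obligate partner, stood at 36.4 and 33.3 FPKM on day 0 and 30.3 and 28.5 on day 3; its change was -0.24 as deposited (adjusted p = 0.119) and 0.06 scaled (adjusted p = 0.795). CLNS1A, the adaptor for Sm proteins, was at 102 and 96.7, then 89.3 and 81.7 FPKM, and fell by 0.21 as deposited (adjusted p = 0.0465) against 0.09 scaled (adjusted p = 0.634). For both the sign turned with the scaling. RIOK1, which competes with CLNS1A for PRMT5, differed by -0.19 (adjusted p = 0.106) and by 0.10 scaled, a turn of sign as well, and COPRS, the adaptor for histones, fell by 0.34 (adjusted p = 0.028), with -0.05 scaled. PRMT1, the main enzyme for asymmetric arginine marks, was at 409 and 393 FPKM on day 0 and at 270 and 292 on day 3, without overlap, and fell by 0.51 as deposited (adjusted p = 0.0212; -0.21 scaled, adjusted p = 0.371). KAT5, an acetyltransferase whose splicing depends on PRMT5 in other cells, was at 15.5 and 14.3, then 10.1 and 11 FPKM, and fell by 0.46 (adjusted p = 0.0213; -0.18 scaled, adjusted p = 0.492).

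**Figure D1:**
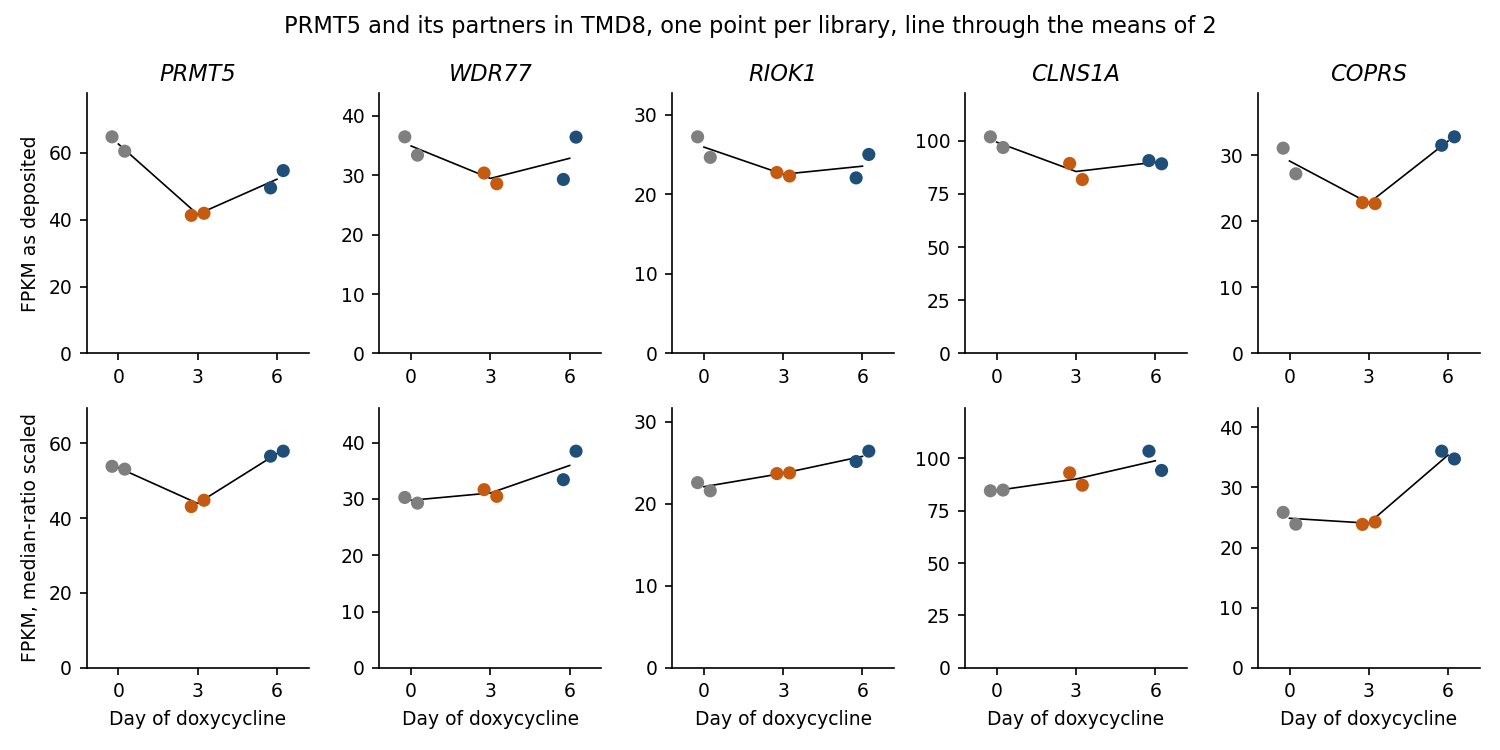
PRMT5 and 4 partners in the 6 TMD8 libraries, by day of doxycycline; the upper row gives FPKM as deposited and the lower row FPKM after median-ratio scaling, with 1 point per library and a line through the day means. In both rows the 2 day 3 points of PRMT5 lie below the day 0 points, whereas those of WDR77, RIOK1 and CLNS1A lie below day 0 in the upper row and above it in the lower row.

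Across all genes the FPKM values shifted downwards on day 3, while a small set of RNAs moved the other way. As deposited, 4492 genes (43%) passed the threshold of 0.05 on the adjusted p, 157 higher (1.5%) and 4335 lower (41.5%). The median change was -0.27, and 90% of genes lay between -0.52 and 0.10. Scaled, 23 genes passed (0.22%), 15 higher (0.143%) and 8 lower (0.0765%), around a median of -0.003; at an unadjusted p under 0.05 there were 727 higher (6.95%) and 594 lower (5.68%). Of the 157 that rose as deposited, 69 were small RNA rows and 51 replication-dependent histone genes, 76.4% together against 2.97% of all tested genes. Of the 97 that rose at least 2-fold (0.928%), 49 were small RNA rows, 42 histone genes and 6 others, whereas the 21 that fell at least 2-fold (0.201%) held 2 small RNA rows and 0 histone genes. The counts of higher and of lower genes both rested on the scale and on each library of days 0 and 3. With an equal sum per library 36 genes passed, 25 higher and 11 lower, and leaving out 1 library gave 30 and 39 for those of day 0 and 36 and 71 for those of day 3. A statement below that a gene fell as deposited holds for that scale, and its scaled value is given beside it.

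**Figure D2:**
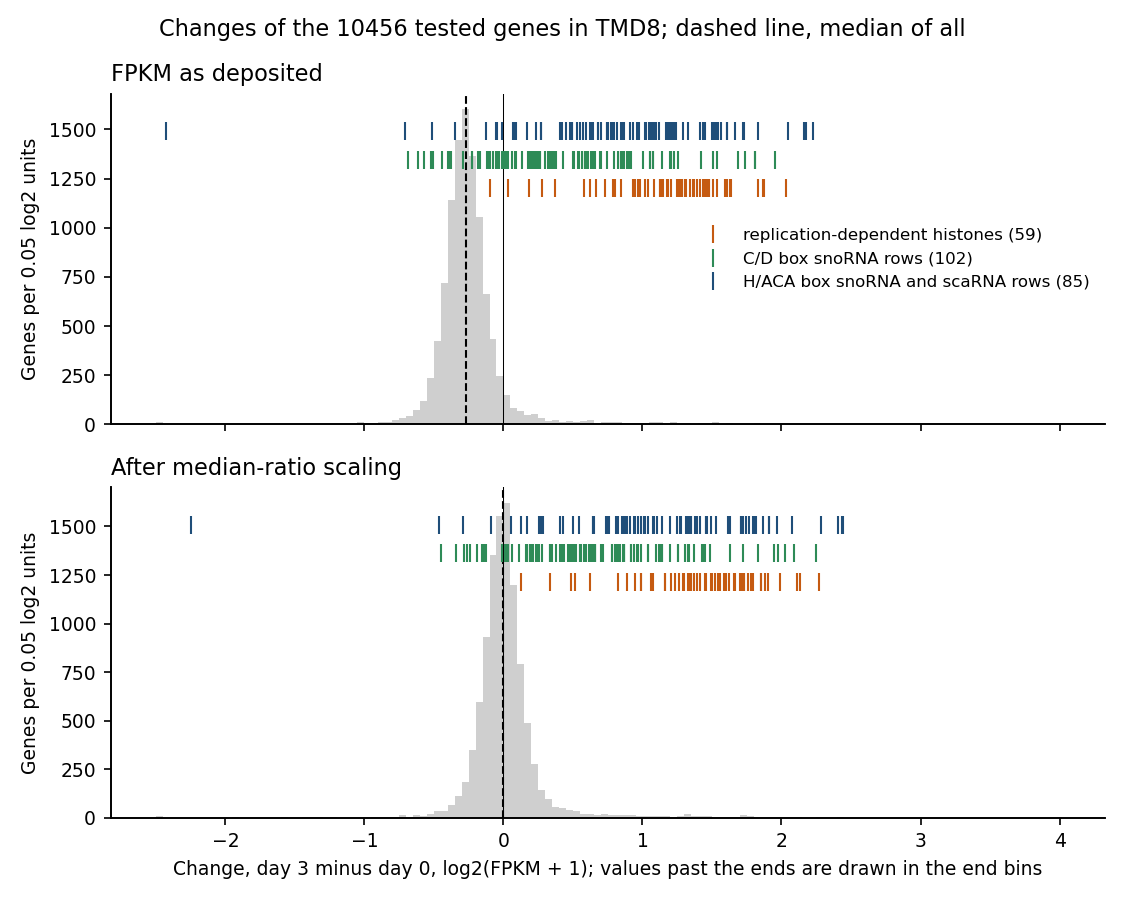
Changes from day 0 to day 3 of the 10456 tested genes in bins of 0.05 log2 units, as deposited (top) and after median-ratio scaling (bottom), with the dashed line at the median of all genes and coloured ticks for the members of 3 lists. The body of the distribution lies left of 0 as deposited and around 0 after scaling, and most histone ticks lie to its right in both panels.

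Histone genes of the replication-dependent kind, whose mRNAs are made in S phase and end in a stem-loop in place of a poly(A) tail, were higher as a group. Of 73 such rows 59 were tested, and 51 rose and 0 fell as deposited, against 1.5% and 41.5% of all genes. The median change was 1.26 as deposited and 1.5 scaled, against -0.27 and -0.003 for all genes. After scaling 2 passed, HIST1H1D and HIST4H4, 58 had an unadjusted p under 0.05 in the higher direction, and in all 59 both day 3 libraries lay above both day 0 libraries, as was so for 24.8% of all genes. HIST1H1D, a linker histone, had 3.81 and 4.45 FPKM on day 0, 10.1 and 9.61 on day 3 and 16.8 and 15.5 on day 6. It was higher at each later day without overlap, and rose by 1.08 (SE 0.09, adjusted p = 0.016) and by 1.33 scaled (SE 0.11, adjusted p = 0.0241). HIST1H4D, a core histone, was at 2.49 and 3.72 FPKM on day 0 and at 20.6 and 11.7 on day 3, and rose by 2.03 (adjusted p = 0.0212; 2.27 scaled, adjusted p = 0.0633). HIST1H3C was at 4.71 and 8.41, then 29.8 and 22.1 FPKM, for a rise of 1.87 (adjusted p = 0.0212; 2.13 scaled, adjusted p = 0.0647). Among the 8 that did not pass as deposited were HIST1H1C and HIST1H2BK, whose mRNAs can also be polyadenylated. Both were among the 59 that were higher without overlap after scaling, and a link to polyadenylation was not tested. The day 3 libraries differed in size of effect. The summed FPKM of the list was 427 and 520 on day 0, 1218 and 824 on day 3 and 1262 and 1093 on day 6, and the scaled median was 1.75 with the first day 3 library alone and 1.17 with the second alone. Many histone genes are near-identical copies, so values of single copies are uncertain. Of 49 tested genes of DNA replication and G1/S 0 rose and 34 fell as deposited, against 1.5% and 41.5% of all genes, with a scaled median of -0.07 and 0 past the threshold.

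Small nucleolar RNAs and other RNAs without a poly(A) tail were higher as well. Box C/D RNAs guide methylation of ribosomal RNA; 102 of 264 rows were tested, 22 rose and 2 fell as deposited, against 1.5% and 41.5% of all genes, and the scaled median was 0.64. Box H/ACA RNAs guide pseudouridine formation, and scaRNAs guide modifications of spliceosomal RNAs. Of 130 rows of both kinds 85 were tested, 31 rose and 3 fell as deposited, and the scaled median was 1.14. That median was 1.64 with the first day 3 library alone and 0.83 with the second alone. After scaling, SNORD33, SNORD47 and SNORA8 rose and SNORA34 fell. SNORD33 stood at 26.4 and 36.3 FPKM on day 0 and at 124 and 121 on day 3, with no overlap, and rose by 1.95 (adjusted p = 0.00724) and by 2.25 scaled (SE 0.17, adjusted p = 0.019). SNORD47 was at 64.2 and 61.3, then 95.8 and 91.3 FPKM, and rose by 0.57 (adjusted p = 0.0212; 0.87 scaled, adjusted p = 0.00881). SNORA8 was at 7.26 and 5.82, then 14.9 and 11.9 FPKM, and rose by 0.93 (adjusted p = 0.0212; 1.2 scaled, adjusted p = 0.0423). These RNAs lie inside host genes (RPL13A, GAS5 and TAF1D for the 3 named), and fragments of the host's unspliced RNA and of the small RNA cannot be told apart in such a row. The 19 tested snoRNA host genes had a median change of -0.08 as deposited and 0.21 scaled, a sign that turned with the scaling.

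The RNAs of the minor spliceosome, which removes a rare class of introns, rose together. RNU11, RNU12, RNU4ATAC and RNU6ATAC are its 4 own snRNAs; RNU11 was added to the 3 that the naming rule gave after its values were seen. RNU6ATAC stood at 6.65 and 12.4 FPKM on day 0, at 53.2 and 33.7 on day 3 and at 34.8 and 10.7 on day 6. RNU4ATAC stood at 4.69 and 8.07, then 33.2 and 25.5, then 32.9 and 9.85 FPKM. In all 4 the day 3 libraries lay above day 0, and the second day 6 library lay below the first. The rises as deposited were 2.10 (adjusted p = 0.033) for RNU6ATAC, 2.07 (adjusted p = 0.031) for RNU4ATAC, 1.87 (adjusted p = 0.0276) for RNU12 and 1.75 (adjusted p = 0.0301) for RNU11; scaled, the adjusted p was between 0.203 and 0.235. RNU4ATAC lies within CLASP1, so fragments of its host may count in its row. RMRP and RPPH1, the RNA parts of the RNase MRP and RNase P enzymes, also rose as deposited. For RMRP the rise was 1.62 (adjusted p = 0.0245, limma), with 1.92 scaled (adjusted p = 0.164). For RPPH1 it was 1.76 (adjusted p = 0.0275), with 2.06 scaled (adjusted p = 0.191). RMRP stood at 782 and 1098 FPKM on day 0 and at 4140 and 1958 on day 3, with the first day 3 library above the second. The 45S pre-ribosomal RNA was at 5222 and 7950 FPKM, then 20066 and 20452, and rose by 1.65 (adjusted p = 0.0212; 1.96 scaled, adjusted p = 0.0685). TERC, the telomerase RNA, rose by 1.24 (adjusted p = 0.028, limma), with 1.39 scaled (adjusted p = 0.205). MALAT1, a nuclear RNA that is not polyadenylated in the usual way, rose by 0.80 (adjusted p = 0.024), with 1.06 scaled (adjusted p = 0.0945). RMRP, RPPH1, RNA45S5, TERC and MALAT1 were chosen after their values were seen. Whether poly(A) RNA was selected is not given in the sources used here, and the part that RNA selection or carried-over nuclear RNA has in these rises was not tested. Rows shorter than a library fragment have an uncertain FPKM.

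After scaling, 15 genes rose and 8 fell. Besides the histone and small RNA genes above, TSPAN3, COX7A2, TMCO1, MED6, SYT4, TYSND1, PHLDA3 and PAF1 rose, with the rows MIR6506 and GJA9-MYCBP, and P2RY8, MYCBP, SNORA34, FAM72D, ETS1, MBP, DIABLO and ILF2 fell. Of the 23, 14 higher and 8 lower ones also passed as deposited; PAF1 did not (adjusted p = 0.06). TMCO1, a calcium channel of the endoplasmic reticulum, stood at 7.98 and 7.62 FPKM on day 0, at 14.1 and 13.3 on day 3 and at 16.1 and 16.9 on day 6. It rose by 0.74 (adjusted p = 0.0212) and by 1.01 scaled (SE 0.05, adjusted p = 0.00712). TSPAN3, a tetraspanin, was at 14.8 and 15.6, then 33.7 and 32.0 FPKM, and rose by 1.06 (adjusted p = 0.0056) and by 1.35 scaled (adjusted p = 0.0111). COX7A2, a subunit of cytochrome c oxidase, was at 79.2 and 83.5, then 138 and 134 FPKM, and rose by 1.04 scaled (adjusted p = 0.0197). In these 3 genes the values of day 6 lay near those of day 3 or above. MED6, a Mediator subunit, rose by 0.91 scaled (adjusted p = 0.034) and PAF1, a subunit of an elongation complex, by 0.51 (adjusted p = 0.0429). ETS1, a transcription factor of B and T cells, stood at 18.8 and 17.7 FPKM on day 0, at 4.68 and 3.67 on day 3 and at 8.03 and 9.80 on day 6. It fell by 1.90 (adjusted p = 0.0067) and by 1.63 scaled (SE 0.11, adjusted p = 0.0111), with both later days below day 0. DIABLO, which frees caspases from their inhibitors, was at 16.0 and 15.8, then 6.40 and 6.22 FPKM, and fell by 0.93 scaled (adjusted p = 0.0111). ILF2, an RNA-binding protein, was at 248 and 242 FPKM on day 0, at 111 and 117 on day 3 and back at 218 and 229 on day 6, and fell by 0.79 scaled (adjusted p = 0.019). DIABLO overlaps LOC101593348 and B3GNT4 and ILF2 overlaps SNAPIN in the reference annotation, so a split of fragments between rows cannot be told apart from a change. MBP was at 3.02 and 3.23, then 0.313 and 0.238 FPKM, and fell by 1.51 scaled (adjusted p = 0.0129).

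The calls differed in how far they rested on 1 library. All 23 kept their sign under every alternative in which they were tested. Of the 23, 7 and 11 passed when the first or the second library of day 0 was left out, 8 and 12 for those of day 3, and 14 and 13 for those of day 6. With 1 library left out, the scaled change lay between 0.99 and 1.04 for TMCO1 and between -1.92 and -1.88 for FAM72D. The calls of MED6, PAF1, PHLDA3, SNORA8, SYT4 and TYSND1 did not hold when any 1 library was left out. For MYCBP and P2RY8 such fits cannot tell a steady fall from a failed estimate, since each day 3 value is an exact 0. GJA9-MYCBP reached the filter through its day 3 values alone. MIR6506 was low on days 0 and 6, so its place past the filter also rested on its day 3 values. MIR1291, not among the 23, was above 1 FPKM on day 3 only. The filter was set on all 6 libraries in each fit, so that selection was not tested.

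**Figure D3:**
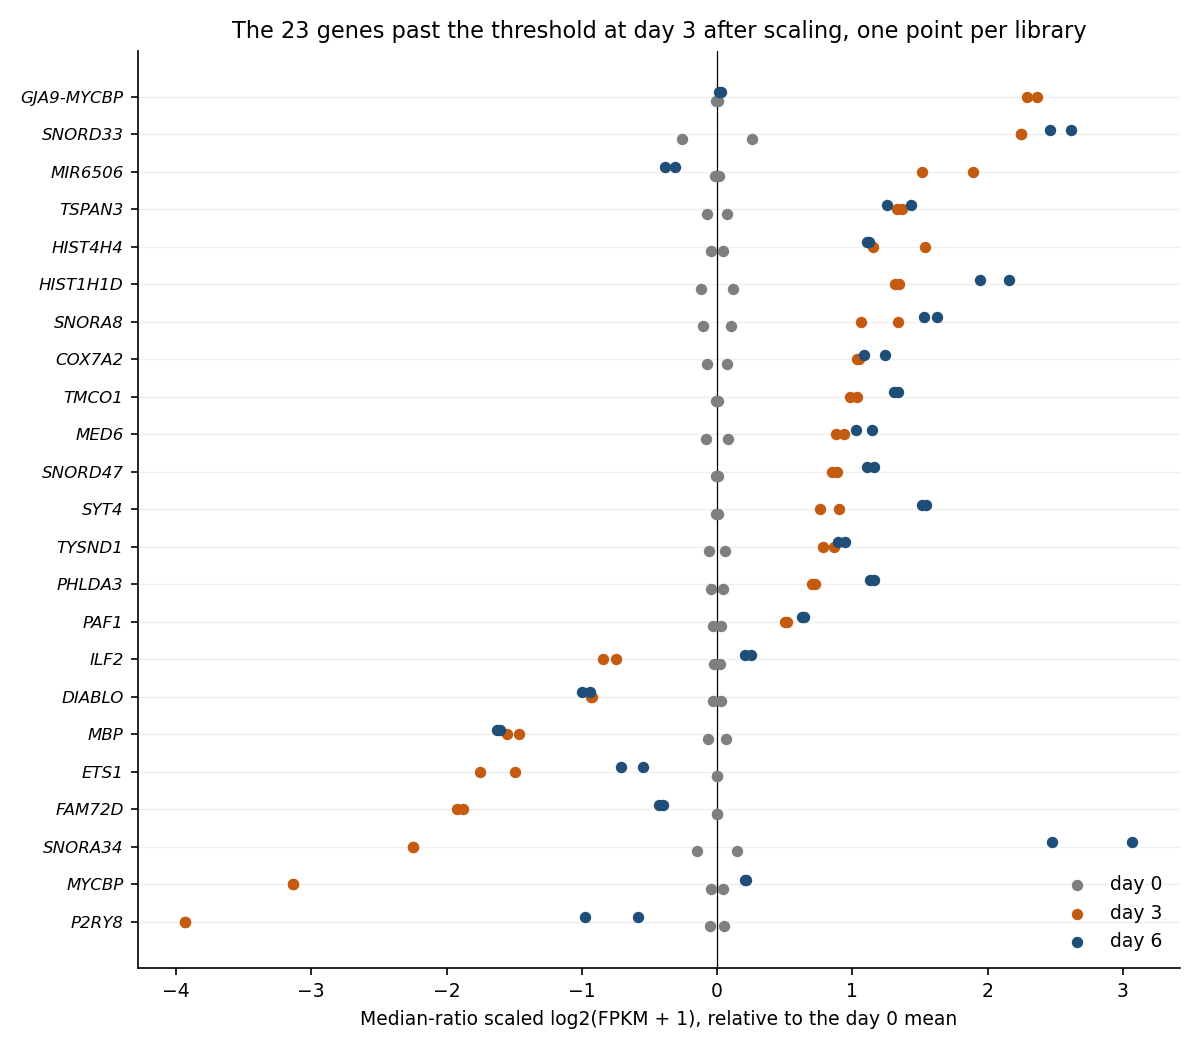
The 23 genes past the threshold on day 3 after median-ratio scaling; the x axis gives the scaled log2(FPKM + 1) minus the day 0 mean, with 1 point per library coloured by day. The day 3 points of each gene lie on 1 side of its day 0 points, and the day 6 points of MYCBP, SNORA34, ILF2, MIR6506 and GJA9-MYCBP lie near day 0 or on the other side of it.

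Several of the largest changes lay in rows that share sequence or position with another row, and a shift of fragments between such rows was not tested. MYCBP, which encodes a small protein that binds MYC, stood at 9.05 and 9.20 FPKM on day 0, was listed at 0 in both libraries of day 3 and stood at 8.07 and 8.63 on day 6. GJA9-MYCBP, the readthrough transcript that contains MYCBP, stood at 0.03 and 0.013 FPKM on day 0, at 4.06 and 3.74 on day 3 and at 0.024 and 0.038 on day 6. The readthrough row thus appeared in the 2 libraries in which the MYCBP row was listed at 0. An exact 0 in such a table can be a failed estimate, so no fold is given against it; the adjusted p after scaling was 0.000294 for MYCBP and 0.00268 for GJA9-MYCBP. P2RY8 is a receptor that confines germinal centre B cells, and its gene lies in the region that the X and Y chromosomes share. No overlapping row was found for it, but the search left out genes with several entries in the reference annotation. Whether that removed P2RY8 was not checked. P2RY8 was at 16.5 and 16.9 FPKM on day 0, listed at 0 in both libraries of day 3, and at 8.04 and 6.36 on day 6 (scaled adjusted p = 0.00168, limma). FAM72A was at 28.9 and 26.8 FPKM on day 0, was listed at 0 in both libraries of day 3 and was at 20.3 and 0 on day 6. It is 1 of 4 near-identical copies. FAM72D was at 3.62 and 3.40, then 0.081 and 0.051 FPKM, FAM72B at 25.2 and 22.8, then 17.6 and 17.3, and FAM72C at 12.4 and 11.2, then 14.8 and 14.8. The sum of the 4 copies was 70.1 and 64.3 FPKM on day 0, 32.5 and 32.1 on day 3 and 48.5 and 32.7 on day 6. That sum includes the listed 0 of FAM72A in both day 3 libraries and in the second of day 6. Since such a 0 can be a failed estimate, a fall of the family as a whole is not shown. GTF2H2C_2 was at 9.36 and 17.0, then 0.079 and 0.435 FPKM, while its copy GTF2H2C was at 7.65 and 2.02, then 14.9 and 12.8. As deposited GTF2H2C_2 fell (adjusted p = 0.0212, limma), and its adjusted p after scaling was 0.0633. GTF2H2C rose as deposited (adjusted p = 0.0394), and its adjusted p after scaling was 0.218. The summed family was 45.3 and 37.1 FPKM on day 0 and 31.6 and 28.1 on day 3. APH1A, a subunit of gamma-secretase, was at 68.5 and 64.7, then 19.4 and 20.0 FPKM, with 20.5 and 56.1 on day 6, so its 2 day 6 libraries disagreed; it fell as deposited by 1.71 (adjusted p = 0.028; -1.41 scaled, adjusted p = 0.259).

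Among 5721 pairs of rows that overlap in the reference annotation, 11 had 1 row that was at least 2-fold lower and 1 at least 2-fold higher on day 3, and in 10 of these both rows had been tested. In 3 of the 11 both libraries of a day moved: MYCBP with GJA9-MYCBP, SNORA34 with MIR1291, and MIR6516 with SCARNA16. The other 8 were mostly a gene and its readthrough transcript, with the exchange in 1 library. SNORA34 stood at 5.13 and 3.73 FPKM on day 0, was listed at 0 in both libraries on day 3 and stood at 34.0 and 24.0 on day 6, while MIR1291, which overlaps it, was at 0.191 and 0.268, then 15.4 and 4.46, then 0.220 and 0.308. MIR6516 was at 6.05 and 15.2, then 0.304 and 0.301, then 58.7 and 38.5 FPKM, while SCARNA16, which overlaps it, was at 2.14 and 3.8, then 27.1 and 9.95, then 13.7 and 8.50. Each pair crossed on day 3 and SNORA34 and MIR6516 were highest on day 6. MIR6506 was at 0.388 and 0.330 FPKM on day 0 and at 3.70 and 2.56 on day 3, and rose by 1.71 scaled (adjusted p = 0.0276); it lies within KIAA0430. A microRNA row of this table counts fragments at the precursor's locus and does not measure the mature microRNA. The mature sequences that the 3 precursor rows stand for are shown so that the rows can be told from their overlapping snoRNAs, from RefSeq on GRCh38.p14, 5′ to 3′, with the seed (bases 2 to 8) in capitals; no seed is shared among them.
hsa-miR-1291 (chr12:48654494-48654517, minus strand): uGGCCCUGacugaagaccagcagu
hsa-miR-6516-5p (chr17:77089428-77089449, plus strand): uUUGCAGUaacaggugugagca
hsa-miR-6516-3p (chr17:77089469-77089490, plus strand): aUCAUGUAugauacugcaaaca
hsa-miR-6506-5p (chr16:15611072-15611094, minus strand): aCUGGGAUgucacugaauauggu
hsa-miR-6506-3p (chr16:15611031-15611052, minus strand): uCGUAUCAgagauuccagacac

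**Figure D4:**
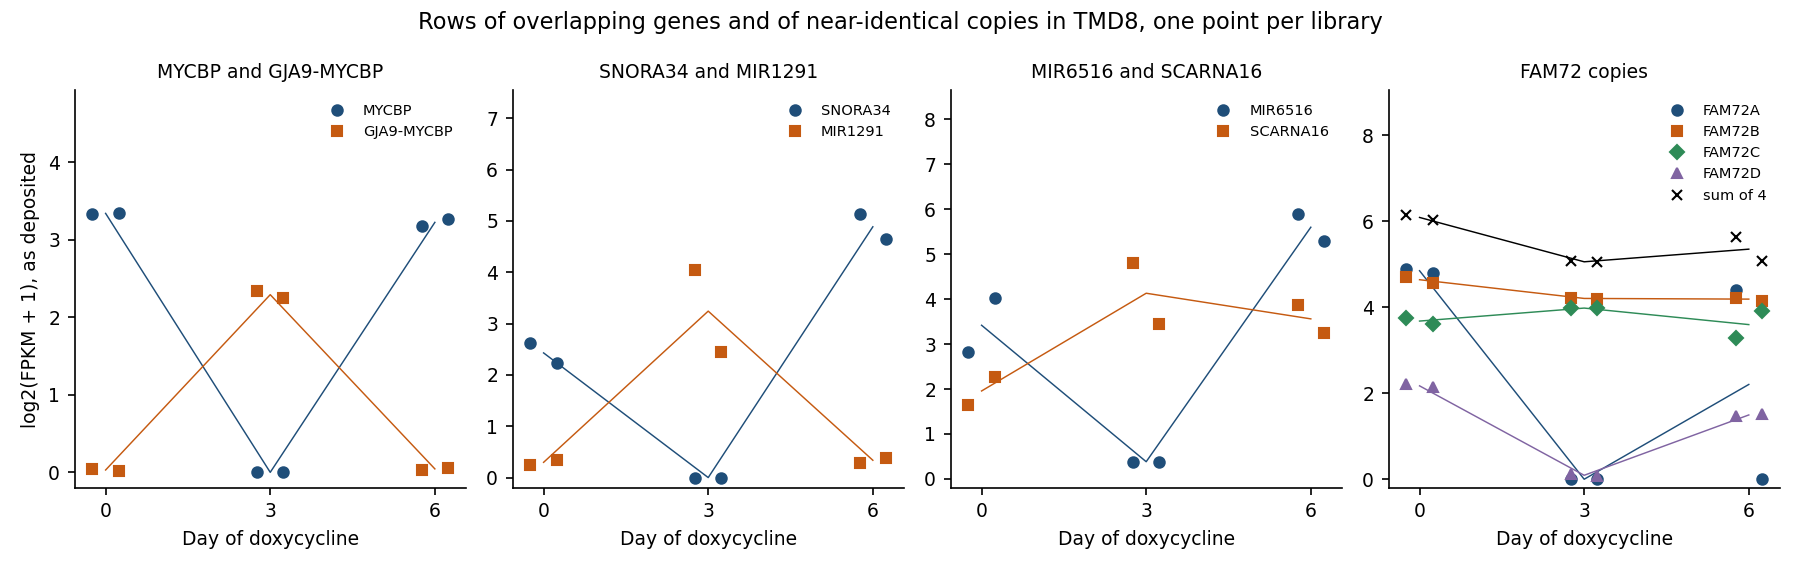
Rows that overlap or are near-identical copies, as log2(FPKM + 1) by day with 1 point per library, crosses for the sum of the 4 FAM72 copies and a line through the day means. In the first 3 panels 1 row of the pair is at or near 0 on day 3 where the other is high, and in the last panel FAM72A and FAM72D are at or near 0 on day 3 while FAM72B and FAM72C are not.

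In all, 27 rows had a listed value of 0 for both libraries of 1 day and a mean of at least 1 FPKM on the other, 15 on day 3 and 12 on day 0. In 18 of the 27 a single library of the other day carried the value. Both libraries of the other day were at 1 FPKM or more in 6 rows at 0 on day 3 (C1orf54, FAM72A, MYCBP, P2RY8, SNORA34 and ZBTB9) and in 1 row at 0 on day 0 (DKFZP434I0714).

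Targets of p53 were shifted upwards relative to the other genes, without most of them passing. Of 36 rows 33 were tested, and as deposited 4 rose (PHLDA3, GADD45A, SESN1 and RPS27L) and 3 fell, against 1.5% and 41.5% of all genes, around a median of -0.04. Scaled, the median was 0.26 against -0.003 for all genes, so the sign of the median turned with the scaling; PHLDA3 alone passed, 18 had an unadjusted p under 0.05 in the higher direction against 6.95% of all genes, and in 25 both day 3 libraries lay above day 0, against 24.8% of all genes. The scaled median lay between 0.21 and 0.27 when any 1 library was left out. PHLDA3, an inhibitor of AKT, stood at 6.52 and 5.75 FPKM on day 0, at 8.77 and 8.69 on day 3 and at 11.3 and 11.9 on day 6. It rose with no overlap by 0.45 (adjusted p = 0.0215) and by 0.71 scaled (SE 0.06, adjusted p = 0.0276). GADD45A, a stress sensor of growth arrest, was at 5.58 and 5.49, then 7.95 and 7.27 FPKM, and rose by 0.40 (adjusted p = 0.0233; 0.66 scaled, adjusted p = 0.0637). RPS27L, a ribosomal protein induced by p53, was at 64.1 and 63.9, then 75.5 and 75.6 FPKM, and rose by 0.24 (adjusted p = 0.0264; 0.54 scaled, adjusted p = 0.0633). The first 3 of these genes were higher still on day 6. SESN1, a sestrin that restrains mTORC1, rose by 0.36 (adjusted p = 0.0397; 0.57 scaled, adjusted p = 0.116). For CDKN1A, the cell cycle inhibitor p21, the values were 65.1 and 67.6 FPKM on day 0 and 62.5 and 66.7 on day 3, which overlap as deposited; its scaled change was 0.26 (adjusted p = 0.303). MDM2, the ligase that degrades p53, was at 21.0 and 18.4, then 21.6 and 19.9 FPKM, with 0.36 scaled (adjusted p = 0.162), and BAX, a killer protein of mitochondria, changed by 0.32 scaled (adjusted p = 0.248). SESN2, which is also a target of ATF4, was the member with an unadjusted p under 0.05 in the lower direction.

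Genes of the amino acid response and the tRNA synthetases had a lower scaled median than any other list described here except the germinal centre markers. ATF4 drives this programme, in which cells short of amino acids make serine, asparagine and charged tRNAs. Of 35 rows 33 were tested, and 30 fell and 0 rose as deposited, against 41.5% and 1.5% of all genes, with ATF3, SLC7A5 and CEBPB as the exceptions. The median change was -0.46 as deposited and -0.18 scaled; after scaling 0 passed, the smallest adjusted p being 0.169 (limma), 18 had an unadjusted p under 0.05 in the lower direction against 5.68% of all genes, and in 27 both day 3 libraries lay below day 0, against 26.4%. PHGDH, the first enzyme of serine synthesis, stood at 65.1 and 64.6 FPKM on day 0, at 38.0 and 39.0 on day 3 and at 35.8 and 28.7 on day 6. It fell by 0.74 as deposited (adjusted p = 0.0212; -0.44 scaled, adjusted p = 0.297) and showed no overlap. ASNS, which makes asparagine, was at 38.0 and 40.2, then 24.2 and 24.0 FPKM, and fell by 0.68 (adjusted p = 0.0212; -0.38 scaled, adjusted p = 0.312). CHAC1, which degrades glutathione, was at 3.36 and 3.67, then 1.66 and 1.90 FPKM, and fell by 0.70 (adjusted p = 0.0222; -0.48 scaled, adjusted p = 0.248). AARS, the alanyl-tRNA synthetase (AARS1 in RefSeq), was at 88.7 and 86.7, then 55.4 and 57 FPKM, and fell by 0.63 (adjusted p = 0.0189; -0.33 scaled, adjusted p = 0.169). ATF4 itself was at 122 and 119, then 81.5 and 85.2 FPKM, and fell by 0.52 (adjusted p = 0.0212; -0.22 scaled, adjusted p = 0.238). In all 5 genes the 2 days did not overlap on either scale. SLC7A1, an arginine transporter, and TRIB3, a feedback inhibitor of ATF4, fell by 0.68 and 0.66 as deposited (both adjusted p = 0.0212; -0.39 and -0.38 scaled). Windows of 100 bases upstream of the start (from -209 to -110 for CHAC1, -100 to -1 for ASNS and -187 to -88 for AARS1, counted from the start) are shown for 3 members that hold the letters TGATGNAA, the core of the composite element bound by ATF4 and C/EBP factors, on either strand, with the match in capitals, from RefSeq promoters on GRCh38.p14. These 3 were chosen from the members with such a match, by size of the scaled fall, and do not stand for the list. No share over the list is given, since promoters matched 25 of the 33 tested members, under 80%. The letters occur in 3.67% of all 27305 promoters of 250 bases before to 50 after the start.
CHAC1 (chr15:40953262-40953361, plus strand): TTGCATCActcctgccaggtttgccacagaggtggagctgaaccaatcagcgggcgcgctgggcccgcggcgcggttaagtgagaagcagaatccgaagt
ASNS (chr7:97872409-97872508, minus strand): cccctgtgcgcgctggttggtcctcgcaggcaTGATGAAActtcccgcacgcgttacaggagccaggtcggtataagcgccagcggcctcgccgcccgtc
AARS1 (chr16:70289594-70289693, minus strand): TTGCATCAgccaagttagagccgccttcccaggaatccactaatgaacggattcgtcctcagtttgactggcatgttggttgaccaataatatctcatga

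Mitotic genes were lower as deposited, by a small amount. All 54 rows of the list were tested, and 52 fell and 0 rose as deposited, with MKI67 and UBE2C as the exceptions, against 41.5% of all genes. The median change was -0.41 as deposited and -0.12 scaled; after scaling 0 passed (smallest adjusted p = 0.13), and 12 had an unadjusted p under 0.05, all in the lower direction, against 5.68% of all genes. TOP2A, the topoisomerase that untangles chromosomes, stood at 117 and 109 FPKM on day 0, at 74.6 and 69.9 on day 3 and at 46.6 and 47.0 on day 6. Its values were lower at each later day without overlap, and it fell by 0.64 (SE 0.07, adjusted p = 0.0212; -0.34 scaled, adjusted p = 0.13). PRC1, a protein of the central spindle, was at 57.4 and 55.4, then 39.0 and 38.1 FPKM, and fell by 0.54 (adjusted p = 0.0212; -0.24 scaled, adjusted p = 0.232). FOXM1, the factor that activates many of these genes, was at 30.0 and 25.7, then 17.7 and 19.9 FPKM, and fell by 0.54 (adjusted p = 0.0224; -0.25 scaled, adjusted p = 0.342). CCNB1, the mitotic cyclin, fell by 0.38 as deposited (adjusted p = 0.0212), with -0.08 scaled (adjusted p = 0.675) and overlapping scaled days. Among replication genes MCM7, a subunit of the helicase, was at 75.1 and 64.0, then 44.4 and 46.4 FPKM, and fell by 0.60 (adjusted p = 0.0235; -0.30 scaled, adjusted p = 0.297), and POLA1, the catalytic subunit of DNA polymerase alpha, by 0.59 (adjusted p = 0.0305; -0.32 scaled, adjusted p = 0.345). Promoters of mitotic genes are known for a CHR element with the letters TTTGAA beside CCAAT boxes, and the list's members share these letters. Of the 48 members with a promoter in RefSeq, 31 (64.6%) held TTTGAA on either strand, 35 (72.9%) held CCAAT and 25 (52.1%) held both, against 15.4%, 35.7% and 6.08% of all 27305 promoters. Of 48 promoters of tested histone genes, out of 59, 40 (83.3%) held CCAAT and 19 (39.6%) TTTGAA. A match is a description of letters and not a binding site. Windows of 100 bases upstream of the start (from -151 to -52 for TOP2A and -100 to -1 for PRC1 and ESPL1) are shown for 3 members with both, with the matches on either strand in capitals.
TOP2A (chr17:40417948-40418047, minus strand): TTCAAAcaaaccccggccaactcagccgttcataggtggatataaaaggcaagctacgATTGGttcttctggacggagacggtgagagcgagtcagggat
PRC1 (chr15:90994536-90994635, minus strand): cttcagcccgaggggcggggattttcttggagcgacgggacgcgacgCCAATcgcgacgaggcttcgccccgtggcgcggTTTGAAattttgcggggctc
ESPL1 (chr12:53268199-53268298, plus strand): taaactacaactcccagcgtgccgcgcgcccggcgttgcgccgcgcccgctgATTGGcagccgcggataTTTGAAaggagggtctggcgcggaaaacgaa

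**Figure D5:**
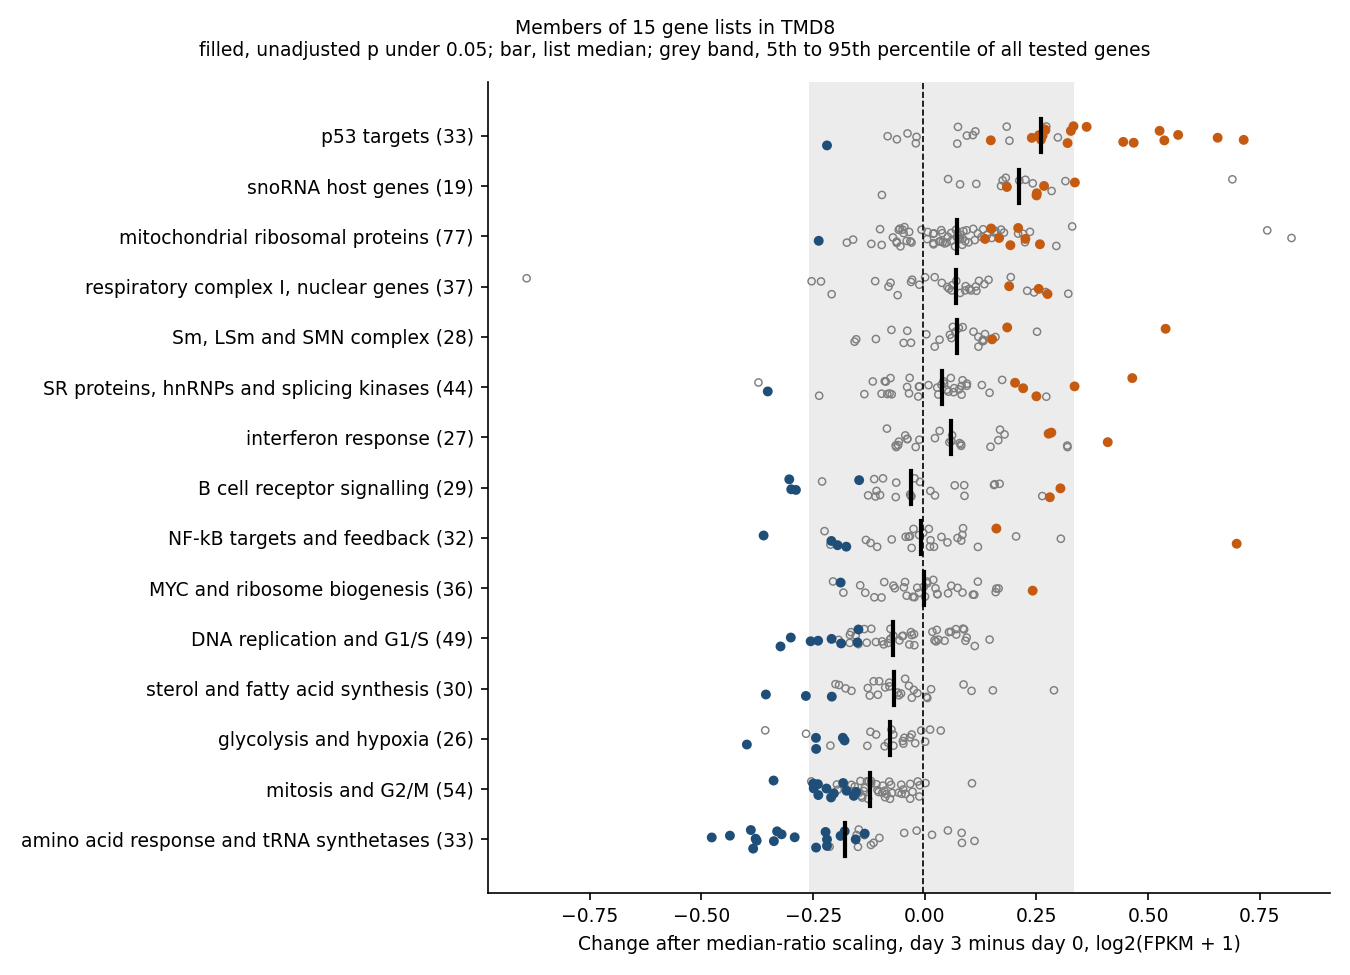
Scaled change from day 0 to day 3 of the members of 15 gene lists, with the number tested in brackets; filled points have an unadjusted p under 0.05 (orange higher, blue lower), bars are list medians, the dashed line is the median of all tested genes and the grey band their 5th to 95th percentile. Points of the p53 targets lie mostly right of the dashed line and those of the amino acid response and of mitosis mostly left of it, while most lists centre near it.

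Genes of B cell identity and signalling moved in both directions. Of 29 tested genes of the B cell receptor pathway 20 fell and 0 rose as deposited, against 41.5% and 1.5% of all genes, with a scaled median of -0.03 and 0 past the threshold. BTK, the kinase targeted by ibrutinib, stood at 135 and 127 FPKM on day 0, at 87.9 and 85.6 on day 3 and at 110 and 124 on day 6. It was lowest on day 3 without overlap, and fell by 0.59 (SE 0.08, adjusted p = 0.0212; -0.29 scaled, adjusted p = 0.139). CD22, an inhibitory receptor, was at 41.8 and 41.3, then 26.9 and 27.3 FPKM, and fell by 0.60 (adjusted p = 0.0212; -0.30 scaled, adjusted p = 0.138), and PTPN6, the phosphatase SHP-1, fell by 0.61 (adjusted p = 0.0212; -0.30 scaled). CD79A, a chain of the receptor, fell by 0.41 (adjusted p = 0.023), with -0.11 scaled and overlap of the scaled days. VAV2, an exchange factor of the same pathway, was at 37.5 and 35.5, then 36.1 and 37.2 FPKM, with 0.30 scaled (adjusted p = 0.139). BCL6, the repressor of the germinal centre, stood at 12.9 and 12.6 FPKM on day 0 and at 8.67 and 8.02 on day 3, without overlap, and fell by 0.56 (adjusted p = 0.022; -0.28 scaled, adjusted p = 0.262). For PRDM1, the plasma cell regulator that BCL6 represses, the values were 4.96 and 8.79, then 9.36 and 8.51 FPKM, which overlap as deposited, and the scaled change was 0.64 (adjusted p = 0.359). TNFRSF17, the plasma cell receptor BCMA, was at 2.04 and 1.39, then 2.97 and 3.18 FPKM, and rose by 0.59 (adjusted p = 0.0321; 0.79 scaled, adjusted p = 0.114). POU2AF1, a B cell coactivator, was at 2.00 and 1.86, then 3.43 and 3.10, then 1.05 and 1.05 FPKM, and rose by 0.54 (adjusted p = 0.0212; 0.75 scaled, adjusted p = 0.0577); it was highest on day 3 and lowest on day 6. IRF4, the factor on which activated B cell lymphoma depends, changed by -0.32 (adjusted p = 0.0551) and by -0.01 scaled. MYC was at 88.8 and 82.8, then 62.1 and 63.2 FPKM, and fell by 0.45 (adjusted p = 0.0358; -0.14 scaled, adjusted p = 0.578), and BCL2, which blocks cell death, fell by 0.46 (adjusted p = 0.0213; -0.17 scaled, adjusted p = 0.333). CCR7, a homing receptor, was at 10.1 and 12.1, then 15.7 and 14.7 FPKM, with a scaled change of 0.70 (adjusted p = 0.248), and EBI3, another target of NF-kB, was at 75 and 70.1, then 43.7 and 47.2 FPKM and fell by 0.66 (adjusted p = 0.0212; -0.36 scaled, adjusted p = 0.234). GZMB, granzyme B, chosen after its values were seen, was at 141 and 143, then 194 and 201 FPKM, for a scaled change of 0.78 (adjusted p = 0.0577).

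Splicing factors, some of which are substrates of the PRMT5 complex, were called lower as deposited in no larger share than all genes. Of 28 tested genes of the Sm, LSm and SMN proteins 9 fell and 0 rose as deposited, with a scaled median of 0.07, and of 44 SR proteins, hnRNPs and splicing kinases 18 fell and 0 rose, with a scaled median of 0.04, where 41.5% of all genes fell and 1.5% rose. After scaling 0 of either list passed, and 3 and 5 had an unadjusted p under 0.05 in the higher direction, with 0 and 1 in the lower, against 6.95% and 5.68% of all genes. HNRNPU, a nuclear matrix protein, was at 103 and 90.1, then 109 and 107 FPKM, for 0.46 scaled (adjusted p = 0.114). HNRNPA1, a repressor of exon use, was at 389 and 284, then 205 and 216 FPKM, and fell by 0.66 (adjusted p = 0.024; -0.35 scaled, adjusted p = 0.36). FPKM per gene says nothing of which introns were removed. In metabolism, 22 of 26 tested genes of glycolysis and hypoxia and 23 of 30 of sterol and fatty acid synthesis fell as deposited and 0 rose, against 41.5% and 1.5% of all genes, with scaled medians of -0.08 and -0.07 and 0 past the threshold. PFKFB4, a regulator of glycolysis, was at 2.00 and 2.13, then 1.00 and 1.08 FPKM, and fell by 0.59 (adjusted p = 0.0212; -0.40 scaled, adjusted p = 0.223). MVD, an enzyme of the mevalonate pathway, was at 33 and 32.4, then 19.7 and 21.2, then 8.45 and 6.86 FPKM, and fell by 0.65 on day 3 (adjusted p = 0.0212; -0.36 scaled, adjusted p = 0.348). Of 77 mitochondrial ribosomal proteins 38 fell and 0 rose as deposited, against 41.5% and 1.5% of all genes, and the median was -0.22 as deposited and 0.07 scaled.

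The same contrast in OCI-Ly7 gave fewer calls, and the difference between the lines passed for few genes. In OCI-Ly7, 16 of 11016 genes passed as deposited (0.145%) and 13 scaled (0.118%). Over the 9688 genes tested in both lines, the difference of the day 3 effects, OCI-Ly7 minus TMD8 after scaling, passed for 9 genes (0.0929%), 3 higher (0.031%) and 6 lower (0.0619%); at an unadjusted p under 0.05 it was 7.28% of genes. PRMT5 changed by -0.32 scaled in OCI-Ly7, and the difference was -0.04 (adjusted p = 0.977). The scaled medians in TMD8 and OCI-Ly7 were 1.5 and 0.60 for histone genes, 1.14 and 0.34 for box H/ACA RNAs and scaRNAs, 0.64 and 0.18 for box C/D RNAs, 0.26 and -0.01 for p53 targets, -0.18 and -0.04 for the amino acid response and -0.12 and -0.08 for mitotic genes. The difference of these medians was not tested. The difference did not pass for the members HIST1H4D, GADD45A and CHAC1: HIST1H4D differed by -1.30 (adjusted p = 0.687), GADD45A by -0.53 (adjusted p = 0.368) and CHAC1 by 0.72 (adjusted p = 0.527). Of the 9, POU2AF1 and SCARNA16 had also risen as deposited in TMD8; for POU2AF1 the difference was -0.94 (adjusted p = 0.0135).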

How the data were processed

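RNA was sequenced in 12 libraries of 2 lymphoma lines. Per the labels' protocols, total RNA came from an RNeasy Plus mini preparation and went into TruSeq RNA libraries. Per the submitters' processing notes, HISAT, StringTie and hg19 were used, without version numbers. The authors deposited FPKM values, 1 table per line, computed per library; absolute depth is unknown, and the number of libraries limits the precision. Changes were tested on log2(FPKM + 1) with limma 3.58.1 (R 4.3.3, empirical Bayes with a trend, two-sided, Benjamini-Hochberg over all genes tested, threshold 0.05) in the 6 TMD8 libraries, whose common spread has 3 residual degrees of freedom, as deposited and after median-ratio scaling (division by the library's median ratio over genes). Simulated data held 200 changed genes and no common shift. Of these genes 80.5% (without scaling) and 86.5% (scaled) were recovered at a change of 1 log2 unit and 0% at 0.5. Changes under 1 log2 unit can therefore go unseen. The deposited values do hold a common shift, and COPRS passed there with a change of -0.34. After scaling, PAF1 passed with a change of 0.51 and PHLDA3 with 0.71. The simulated shares thus do not carry over to the deposited scale and describe the scaled fit only roughly. The genes named were the 12 largest past the threshold in each direction as deposited, up to 15 in each direction after scaling, 5 in each direction for the difference between lines, up to 4 per list and a fixed set; not all are printed, and others are marked as chosen after their values were seen, or are members of a described list or row family. The members, lists and rules were chosen with earlier results of these data known. Of 928 list entries 920 matched the table directly and 7 by an older symbol. Overlaps of rows, promoters and microRNAs came from RefSeq on GRCh38.p14, another build than the table's, so no coordinates of the table's genes are given. Values of some single genes are not reported here. Alternatives tried were another pseudocount, filters, trend, scalings, a replicate block, days 0 and 3 alone and leaving out each library.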

Additional observations from a re-analysis of the deposited data

Results flagged for a closer look

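For 9 genes, of which 8 are described, the day 3 effect differed between the 2 lines after scaling, by limma on the difference itself (OCI-Ly7 minus TMD8). In TMD8, POU2AF1 changed by 0.75 and in OCI-Ly7 by -0.20, a difference of -0.94 (SE 0.10, adjusted p = 0.0135). For SCARNA16 the difference was -5.02 (adjusted p = 0.0274), with the row listed at 0 in both OCI-Ly7 libraries of day 3; the size of this difference, and of that of TXNDC5 (0 and 0.139 FPKM in those libraries), depends on the pseudocount and is no fold. The other 6 changed by between -0.04 and 0.07 in TMD8, and the difference came with a change in OCI-Ly7. It was -4.60 for TXNDC5, -2.58 for MSL2, -1.32 for PRKAG1, -1.31 for MRPL42, 1.22 for JADE1 and 2.79 for ZNF106. ZNF106 stood at 9.83 and 8.86, then 7.52 and 7.25 FPKM in TMD8, and at 2.21 and 2.36, then 20.8 and 18.8 in OCI-Ly7. On day 6 in OCI-Ly7 ZNF106 was at 1.55 and 3.00, MSL2 at 12.8 and 12.5 and JADE1 at 5.54 and 5.78 FPKM. These lay near their day 0 values, and PRKAG1 had moved back in part (23.8 and 23.7). TXNDC5 (0.175 and 0) and MRPL42 (8.78 and 8.27) stayed low on day 6.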

How the results depend on the processing

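With 3 residual degrees of freedom, counts moved with the libraries and the scaling. As deposited, 4492 genes passed; 2705 without a filter on low values, 36 with an equal sum per library and 51 with an equal sum over rows other than 45S, small RNA and histone rows passed, and with 1 library left out the count ran from 30 to 5763. Higher calls were 157 of 4492 as deposited, and 25 of 36 and 42 of 51 in those rescaled fits. Scaled, 23 genes passed, from 22 to 36 with 1 library left out. For the difference between lines 9 passed, from 8 to 33 with 1 library left out. The 27 rows listed at 0 became 5 when the other day had to reach a mean of 5 FPKM. Whether replicate numbers pair the libraries across days was not settled. As deposited, deviations correlated at -0.10 between days 0 and 3, -0.15 between days 0 and 6 and 0.08 between days 3 and 6. With a replicate block 13 genes passed as deposited, 5 scaled and 8 for the difference. Crossed day 0 numbers, an alternative chosen after seeing the data, gave 4977 as deposited and 110 scaled. Signs turned for RIOK1 (0.0013 with an equal sum, 0.12 without those rows) and, without those rows, for WDR77 (0.080), CLNS1A (0.11) and IRF4 (0.010) as deposited. Scaled, they turned without the first day 0 library for COPRS (0.0091) and IRF4 (0.012), whose range with 1 library left out began at -0.10 and -0.034, and without the first day 3 library for CD79A (-0.24 to 0.016). The cause was not tested. In no other gene tested this way did the sign turn.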
